A study of Arabidopsis thaliana with 15 samples.

Results

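The comparison described here set Arabidopsis roots after 3 h in Rose Bengal against roots after 2 h, and asked which transcripts were still moving in the last hour, which had levelled off, and how large a change the libraries could show. It used 6 of the 15 libraries of the series, the 3 labelled RB 3 h and the 3 labelled RB 2 h, named a, b and c as in their labels. All were of wild-type Columbia-0, from roots cut from the shoots after treatment of seedlings aged 7 days, and each replicate pooled 30 to 50 seedlings grown at 21 °C in cycles of 16 h of light and 8 h of dark. Both groups had been exposed to 10 µM Rose Bengal in water. The other 9 libraries were roots after 1 h in water, roots after 1 h in 10 µM Rose Bengal, and roots after 2 h in 5 mM hydrogen peroxide with a compound labelled 10 µM MRB, a name the labels do not explain. No water library had been taken at 2 h or 3 h, so an hour more in dye and an hour more in solution cannot be told apart, and the light given during exposure was not given in the sources used here. Nothing in the labels says that replicates came from separate days, so p-values measure the spread between these pools.

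Rose Bengal is a xanthene dye that, once it absorbs light, passes the energy to oxygen and gives singlet oxygen, a short-lived oxidant that reacts with lipids, proteins and pigments close to where it forms. Oxidised and misfolded proteins release heat shock factors, which switch on genes of chaperones, the proteins that hold or refold damaged clients. Electrophiles made from oxidised lipids switch on detoxifying enzymes such as glutathione transferases, and in roots oxidants are known to lower water flow through aquaporins, the membrane channels that carry water.

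Transcripts had been counted by MARS-seq, which reads the 3′ end of each transcript. The RB 2 h libraries held 1032423, 1927894 and 2305295 counts and the RB 3 h libraries 4389349, 1873262 and 1364525, so that a single count was worth 0.404 to 1.01 at 2 h and 0.213 to 0.716 at 3 h in CPM, the scale on which counts are set to equal library totals. On the first principal component of all 15 libraries, which carried 42.5% of the variance, the RB 2 h libraries lay at 13.46 to 29.65 and the RB 3 h libraries at 34.01 to 42.54, without overlap. Replicate a of RB 2 h stood apart from the others on the third component, at -46.83, and had the smallest total of the 6. Endodermis markers, made chiefly by an inner cell layer of roots, were present in all 6 libraries and summed to 0.0526% to 0.0843% of counts. Markers of green shoot tissue, such as light-harvesting proteins, were also present, at 0.058% to 0.0899% of counts at 2 h and 0.0399% to 0.0449% at 3 h. The exact two-sided permutation p of that difference was 0.1, the smallest that 3 against 3 libraries allow.

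The last hour changed few transcripts past the test. Of 9891 genes tested, 22 (0.222%) differed between 3 h and 2 h at an adjusted p under 0.05, with edgeR's quasi-likelihood test and Benjamini-Hochberg adjustment over all genes. Of these, 6 (0.0607%) were higher at 3 h and 16 (0.162%) were lower. The hour before, from 1 h to 2 h in dye, gave 968 (9.79%) by the same test, 557 (5.63%) higher and 411 (4.16%) lower. Fold changes were also compared over the 4770 genes with a mean count of at least 50 in the 6 libraries of 2 h and 3 h. Their SD over genes on the log2 scale was 0.329 in the last hour and 0.637 in the hour before. That choice keeps genes low only at 1 h and can drop genes high only at 1 h, so it does not treat the 2 steps alike. Both SDs also include the error of the estimates. In the last hour the median SE was 0.22 at mean counts of 100 to 300 and 0.19 at 1000 and over. Without adjustment, 842 genes (8.51%) had p under 0.05 in the last hour, 421 each way.

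The number of calls depended on which libraries were used. Fewer libraries also give the test less power, and none of the 22 changed sign under an alternative. The count was 0 with edgeR when replicate b of RB 2 h, replicate a of RB 3 h or replicate b of RB 3 h was left out, where 593, 643 and 699 genes still had an unadjusted p under 0.05. It was 9 without replicate a of RB 2 h, 4 without replicate c of RB 3 h and 46 without replicate c of RB 2 h. DESeq2 on all libraries called 99, including 21 of the 22, from 14388 genes with a p-value. It gave no adjusted p to 8093 genes. With the summed share of green tissue markers as a covariate, edgeR called 10, of which 4 were among the 22, HSP90.1, BXL1, AT4G12520 and AT5G64120. That share did not overlap between 2 h and 3 h. A fit with it as a covariate, here and below, thus cannot cleanly tell it apart from the extra hour. In each of the 22 the CPM ranges of the 2 groups did not overlap, which was also true of 1316 genes tested (13.3%), 689 (6.97%) of them higher and 627 (6.34%) lower.

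**Figure D1:**
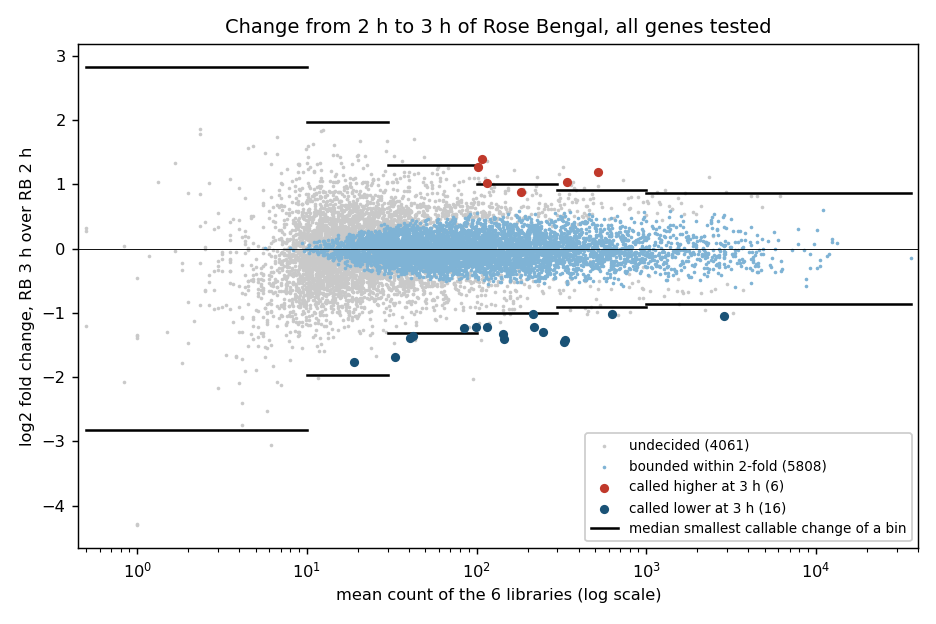
Log2 fold change of RB 3 h over RB 2 h (vertical axis) against the mean count over the 6 libraries (horizontal axis, log scale) for the 9891 genes tested, one point per gene, coloured as called, bounded within 2-fold or undecided, with the median smallest change that could have been called in each range of counts. The 22 called genes lie near or past that smallest change, which narrows from low to high counts.

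A gene that was not called is not thereby shown to have stopped, so each was read through the 95% interval of its fold change. Where that interval lay wholly within -1 and 1 on the log2 scale, the gene is described as bounded within 2-fold; the bound is per gene, is not adjusted for the number of genes, and leaves room for smaller changes. By this measure 5808 genes (58.7%) were bounded within 2-fold, 4061 (41.1%) were undecided, and 1681 (17%) were bounded within 1.5-fold. The outcome followed the depth. Of the 721 genes with a mean count under 10, 0.832% were bounded, against 25.4% of the 3017 between 10 and 30, 74.8% of the 2971 between 30 and 100, and 88% to 89.1% of those above 100.

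The size of change that could have been called followed the depth too. At the largest unadjusted p among the calls, 0.000107, the estimate for the median gene had to reach a 2.64-fold change. The median needed was 7.09-fold for genes with mean counts under 10, 2.48-fold between 30 and 100, and 1.82-fold at 1000 and over. These sizes are those of the estimate, which scatters around the true change, so a true change of that size could still be missed. The same genes would have needed 1.92-fold at the p that sufficed in the hour before, 0.00477, because many more calls there let the adjusted threshold reach further. All but 1 of the 22 called genes had changed at least 2-fold, and the smallest called log2 fold change was 0.88.

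Among the genes that rose, HSP90.1 (AT5G52640), the cytosolic HSP90 chaperone made under heat and proteotoxic stress, stood at 102, 108 and 159 CPM in the 3 libraries at 2 h and at 330, 271 and 241 CPM at 3 h. Every 3 h library was above every 2 h library. In dye for 1 h it had been at 34.5 to 44.9 CPM and in water at 5.98 to 9.55 CPM, so that it was higher at each later time. The mean went from 123 ± 31.2 to 281 ± 45.2 CPM (SD, n = 3), a log2 fold change of 1.19 (SE 0.24, adjusted p 0.0382), or 2.28-fold.

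PAD3 (AT3G26830), the cytochrome P450 that completes the synthesis of camalexin, the antimicrobial indole of Arabidopsis, read 19.1, 16.1 and 31.9 CPM at 2 h and 69.9, 38.8 and 55.2 CPM at 3 h. It had read 4.92 to 6.29 CPM after 1 h in dye. Its log2 fold change in the last hour was 1.27 (SE 0.26, adjusted p 0.0382). GAD4 (AT2G02010), a glutamate decarboxylase that makes the stress metabolite γ-aminobutyrate, read 33.2, 20 and 25.1 CPM at 2 h and 59.2, 56.9 and 86 CPM at 3 h. The log2 fold change of 1.39 (SE 0.27, adjusted p 0.0382) was the highest among the 6 genes that rose. CYP81D8 (AT4G37370), a cytochrome P450 known from electrophile and xenobiotic responses, went from 27.2, 30.7 and 34.4 CPM to 65.8, 61 and 62.3 CPM. The 3 h libraries were the tighter group, and the log2 fold change was 1.02 (SE 0.22, adjusted p 0.0481).

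LAC1 (AT1G18140), a laccase of the class of copper oxidases that couples phenols in cell walls, read 105, 71.1 and 104 CPM at 2 h and 188, 200 and 183 CPM at 3 h. The last hour gave it a log2 fold change of 1.03 (SE 0.21, adjusted p 0.0382). After 1 h in dye it had read 15.9 to 27.6 CPM, no more than in water, where it read 22.4 to 35.8 CPM. AT4G15120, which encodes a protein with a VQ motif, a short segment by which many such proteins bind WRKY factors, went from 53.4, 56 and 56.6 CPM to 92, 99.8 and 116 CPM. Its log2 fold change of 0.88 (SE 0.18, adjusted p 0.0382) was the smallest among the 22 calls.

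**Figure D2:**
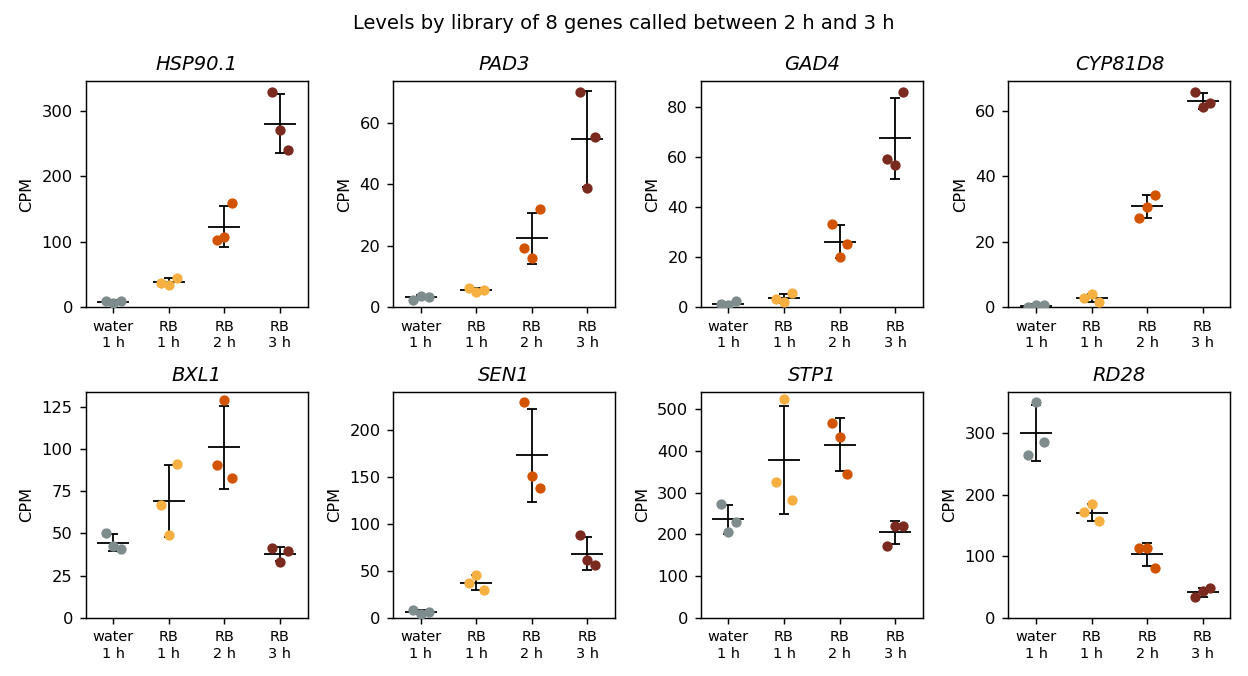
CPM (vertical axes, per panel) of 8 called genes in each library of water 1 h and of Rose Bengal 1 h, 2 h and 3 h, with points for libraries and bars for the mean ± SD of 3. HSP90.1, PAD3, GAD4 and CYP81D8 are highest at 3 h, BXL1, SEN1 and STP1 are lower at 3 h than at 2 h, and RD28 is lower at each later time.

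Of the 16 genes that fell, some stood lower by their mean at each later time, from water on. RD28 (AT2G37180), also known as PIP2;3, a water channel of the plasma membrane, had read 157 to 184 CPM after 1 h in dye and 264 to 351 CPM in water. It read 114, 113 and 81.3 CPM at 2 h and 33.7, 42.8 and 48 CPM at 3 h. The groups were far apart, with a log2 fold change of -1.32 (SE 0.20, adjusted p 0.00849), the smallest adjusted p of the comparison. PIP2B is a near copy of this gene, and reads of either may have been counted for the other.

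TIP2 (AT3G26520), also known as TIP1;2, a water channel of the vacuole membrane, was among the most abundant of the 22, at 1629, 2353 and 1589 CPM at 2 h and 768, 952 and 972 CPM at 3 h. This gave a log2 fold change of -1.05 (SE 0.22, adjusted p 0.0483). AT5G64120, a peroxidase of the cell wall class, went from 234, 280 and 209 CPM to 65.4, 91.7 and 110 CPM, a log2 fold change of -1.46 (SE 0.24, adjusted p 0.00895). In it, too, the levels were lower at each later time, from 421 to 571 CPM in water and 276 to 385 CPM after 1 h in dye. GXM2 (AT4G09990), a methyltransferase that acts on glucuronoxylan of secondary walls, read 29.2, 32.1 and 26.3 CPM at 2 h and 8.1, 11.1 and 16.5 CPM at 3 h. It fell with a log2 fold change of -1.39 (SE 0.29, adjusted p 0.0474).

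In other genes that fell, the mean at 2 h had not been below that at 1 h. SEN1 (AT4G35770), a gene induced by darkness and sugar starvation, read 3.74 to 8.35 CPM in water, 29.9 to 45.3 CPM after 1 h in dye, and 229, 151 and 138 CPM at 2 h. At 3 h it read 87.8, 61 and 55.9 CPM. The hour from 1 h to 2 h gave a log2 fold change of 2.22 (adjusted p 1.32e-06) and the last hour -1.30 (SE 0.23, adjusted p 0.0257). Without replicate a of RB 2 h, where SEN1 was highest, the last hour gave -1.06 (adjusted p 0.072). With the share of green tissue markers as a covariate it gave -0.71 (adjusted p 0.277). BXL1 (AT5G49360), a β-xylosidase of the cell wall, went from 90.7, 129 and 82.9 CPM to 41.1, 32.8 and 39.4 CPM, a log2 fold change of -1.41 (SE 0.23, adjusted p 0.00895). BGAL1 (AT3G13750), a β-galactosidase of the cell wall, went from 73.6, 85.7 and 73.2 CPM to 29.8, 29.7 and 42.3 CPM, a log2 fold change of -1.22 (SE 0.25, adjusted p 0.0382). Both wall enzymes thus had no overlap between 2 h and 3 h.

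STP1 (AT1G11260), the symporter that takes up glucose and other hexoses at the plasma membrane, went from 468, 433 and 345 CPM to 173, 220 and 221 CPM. Its 3 h libraries lay in the range of the water libraries, 205 to 273 CPM, or below it, and the log2 fold change was -1.02 (SE 0.21, adjusted p 0.0382). AT5G02160 went from 70.5, 77.9 and 49.7 CPM to 35.6, 22.2 and 25.1 CPM, a log2 fold change of -1.21 (adjusted p 0.036), after 18.7 to 24.4 CPM at 1 h in dye. AT1G80440, a kelch-repeat F-box protein, went from 171, 154 and 123 CPM to 66.1, 64.5 and 60.2 CPM, a log2 fold change of -1.22 (adjusted p 0.036).

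LHB1B2 (AT2G34420), a light-harvesting protein of photosystem II, belongs to green tissue. It read 394, 224 and 154 CPM at 2 h and 86.7, 109 and 90.3 CPM at 3 h, a log2 fold change of -1.42 (SE 0.29, adjusted p 0.0382). Its paralogs share much of their sequence, so the split of reads among them is uncertain, and among the 6 libraries its level was highest in replicate a of RB 2 h, which also had the highest share of green tissue markers of the 6. With that share as a covariate the log2 fold change was -0.95 (adjusted p 0.291), and without that replicate it was -0.99 (adjusted p 0.143).

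The other 5 genes that fell are also known by locus alone in the reference. AT3G62950, of the thioredoxin superfamily, went from 25.2, 11.2 and 12.1 CPM to 4.47, 4.03 and 5.01 CPM, with the lowest log2 fold change of the 22, -1.76 (SE 0.38, adjusted p 0.0481). AT1G76800, of the VIT family of metal transporters, went from 32.2, 27.3 and 19.4 CPM to 7.24, 9.57 and 7.16 CPM, a log2 fold change of -1.69 (SE 0.31, adjusted p 0.0277). AT1G09750, an aspartyl protease, went from 23.2, 42.8 and 21.4 CPM to 9.8, 13.1 and 12.2 CPM, and its log2 fold change was -1.36 (adjusted p 0.0382). In these as in the other calls the 2 groups were separate. AT4G12520, which read 43.3, 69.1 and 56.2 CPM at 2 h and 19.2, 30.7 and 24.4 CPM at 3 h, had stood at 533 to 594 CPM in water, and its log2 fold change was -1.23 (adjusted p 0.036). It lies in a tandem array of related genes, so its split of reads is uncertain. AT2G39430, a dirigent-like protein of the family that guides lignin and lignan coupling, went from 141, 173 and 111 CPM to 55, 85.2 and 71.6 CPM, a log2 fold change of -1.02 (adjusted p 0.0382).

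The heat shock genes were read as a whole family. None of the 12 small heat shock proteins tested, which bind unfolding clients and keep them from clumping, passed edgeR's test (0 at an adjusted p under 0.05, 11 at an unadjusted p under 0.05), whereas DESeq2 called 8, all higher. All 12 were fitted higher at 3 h, with a median log2 fold change of 0.88 and a range of 0.47 to 1.11, against a median of -0.03 over all genes tested. In 10 of the 12 the ranges of the 2 groups did not overlap, with 3 h higher, and 10 were undecided. Over all genes tested, 6.97% were separate and higher, and 4.26% were higher at an unadjusted p under 0.05. For HSP17.4 (AT3G46230), a cytosolic member, the libraries read 1473, 1082 and 1620 CPM at 2 h and 2268, 2548 and 2543 CPM at 3 h, after 143, 219 and 208 CPM at 1 h in dye. Its log2 fold change in the last hour was 0.82 (SE 0.19, 95% interval 0.42 to 1.22, adjusted p 0.0711), or 1.76-fold where 1.87-fold would have been called.

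AT2G29500, another cytosolic member, read 628, 475 and 739 CPM at 2 h and 1303, 1404 and 1271 CPM at 3 h, with a log2 fold change of 1.11 (SE 0.26, adjusted p 0.0786). HSP23.6-MITO, the mitochondrial member, read 179, 149 and 267 CPM at 2 h and 360, 479 and 413 CPM at 3 h, with 1.06 (adjusted p 0.102). Every 3 h library was thus above every 2 h library for both transcripts, without passing the test. HSP18.2, a cytosolic member, was bounded within 2-fold although its interval lay above 0, at 66.5, 50.6 and 61.9 CPM and then 98.2, 82.1 and 85.2 CPM, with 0.58 (95% interval 0.20 to 0.97, adjusted p 0.251). AT1G59860 was the lowest of the family, at 319, 244 and 470 CPM and then 458, 474 and 498 CPM, with 0.47 (adjusted p 0.545), and its groups overlapped. Several of these genes are close paralogs, so the values of single cytosolic members are uncertain.

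Of the 14 large chaperones and co-chaperones, HSP90.1 rose, 4 were bounded within 2-fold and 9 were undecided, with a median of 0.60 and a range of -0.07 to 1.19. Left without replicate a of RB 2 h and replicate b of RB 1 h, the libraries that stood apart, the family had 0 calls with edgeR. It also had 0 without replicate a or b of RB 2 h or any 1 replicate of RB 3 h, and 1 without replicate c of RB 2 h. HSP70 (AT3G12580), the inducible cytosolic HSP70, read 2131, 1491 and 1974 CPM at 2 h and 3279, 3465 and 3111 CPM at 3 h, with a log2 fold change of 0.82 (SE 0.20, adjusted p 0.0902). Hsp70b, a second stress-inducible HSP70, read 154, 117 and 164 CPM and then 246, 307 and 229 CPM, with 0.85 (SE 0.21, adjusted p 0.0996). HSP101, the disaggregase that pulls proteins out of clumps, read 417, 369 and 431 CPM and then 506, 726 and 776 CPM, with 0.72 (adjusted p 0.192). In all 3 the groups were separate but the test was not passed. The constitutive members differed less, and HSC70-1, the housekeeping HSP70, stood at 6729, 6241 and 4831 CPM at 2 h and 5480, 6834 and 6599 CPM at 3 h. Its log2 fold change was 0.09 (95% interval -0.28 to 0.45), and HSP60, of the mitochondrial matrix, had -0.07 (95% interval -0.49 to 0.35).

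The heat shock factors and their partners, the regulators of these genes, gave 0 calls among 8 tested (4 at an unadjusted p under 0.05, 0 with DESeq2), with a median of 0.57, and 4 were bounded within 2-fold. HSFA2, the factor that sustains the heat response, read 18.1, 26.3 and 23.9 CPM at 2 h and 38.8, 39.3 and 33.7 CPM at 3 h, with a log2 fold change of 0.69 (adjusted p 0.415). A 2.36-fold change would have been needed for a call at its spread, against the 1.61-fold fitted. MBF1C, a co-activator of heat tolerance, read 539, 378 and 642 CPM and then 796, 908 and 847 CPM, with 0.71. HSF4, also known as HSFB1, a factor without an activation domain, was bounded at 0.25 (95% interval -0.12 to 0.61), with overlapping groups of 285, 250 and 235 CPM and 279, 272 and 362 CPM.

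**Figure D3:**
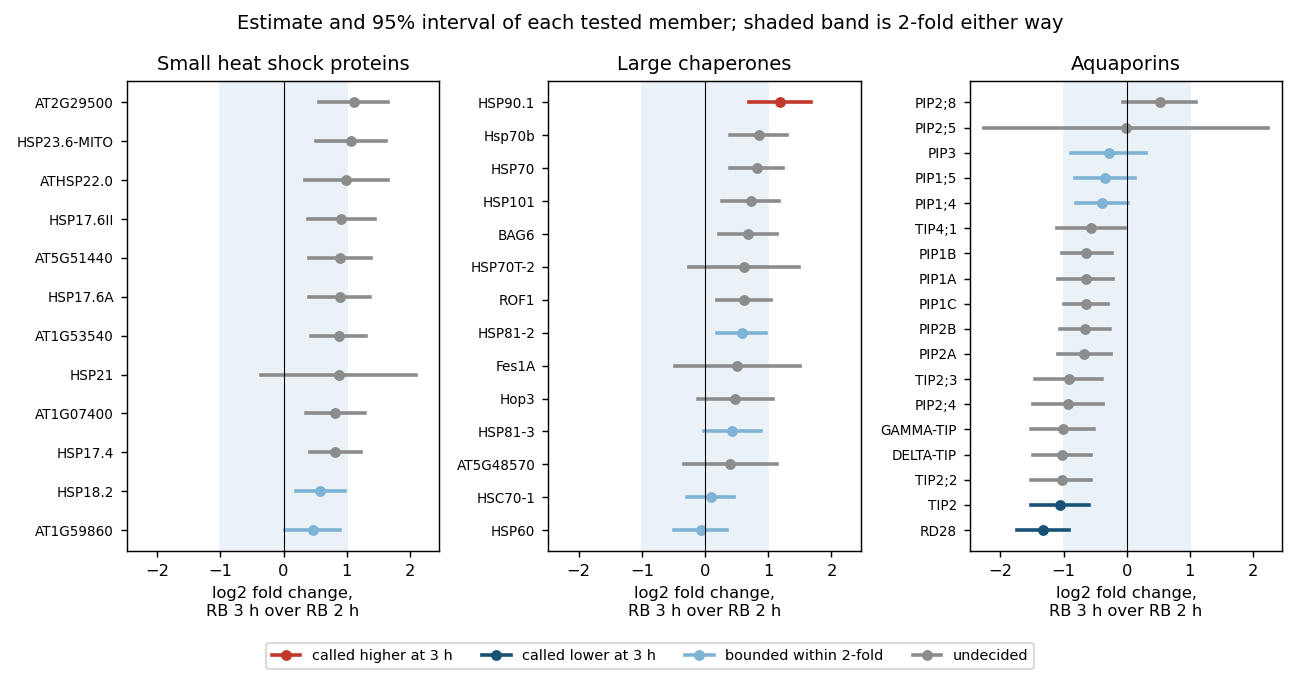
Log2 fold change of RB 3 h over RB 2 h with its 95% interval for each tested small heat shock protein, large chaperone and aquaporin, with the range from -1 to 1 shaded. Every small heat shock protein lies above 0 and most of their intervals reach past 1, HSC70-1 and HSP60 lie within the shading, and all aquaporins but PIP2;8 lie below 0.

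Among detoxifying genes, the 14 enzymes and regulators other than glutathione transferases held 1 call, CYP81D8, with 4 bounded within 2-fold and 9 undecided. All 14 were fitted higher at 3 h, with a median of 0.62 and a range of 0.02 to 1.34. UGT75B1, a glucosyltransferase, had come up from 0.898, 2.95 and 2.49 CPM at 1 h in dye to 131, 58.4 and 135 CPM at 2 h, and read 184, 160 and 214 CPM at 3 h, with 0.79 (SE 0.26, adjusted p 0.258) in the last hour. UGT74E2, a glucosyltransferase of the auxin indole-3-butyric acid, read 67.5, 26.3 and 127 CPM at 2 h and 184, 158 and 153 CPM at 3 h, with 1.16 (adjusted p 0.302). The wide spread at 2 h, with replicate b lowest in both, went with intervals too wide to decide. OPR1, a reductase of reactive oxylipins, was bounded at 0.33 (95% interval -0.07 to 0.74), with overlapping groups of 2305, 1210 and 1596 CPM and 1844, 2074 and 2519 CPM.

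The 17 glutathione transferases, which join glutathione to electrophiles, gave 0 calls with edgeR (6 at an unadjusted p under 0.05, 1 with DESeq2), with a median of 0.48 and a range of -0.64 to 1.27, and 4 were bounded. GSTF8, a phi-class member that marks oxidative stress, read 3473, 4244 and 3847 CPM at 2 h and 4988, 6236 and 6397 CPM at 3 h, with a log2 fold change of 0.61 (95% interval 0.26 to 0.95, adjusted p 0.121). It was thus separate between groups and bounded within 2-fold at once. GSTU19, a tau-class member, had 0.50 (95% interval 0.12 to 0.88), from 813, 641 and 1009 CPM to 1386, 1011 and 1082 CPM. GSTF3, in contrast, read 64.5, 43.3 and 40.8 CPM and then 53.5, 45.3 and 55.2 CPM, and was bounded at 0.08 (95% interval -0.42 to 0.59).

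Markers of singlet oxygen, transcripts named from mutants that release it in chloroplasts, gave 0 calls among 9 tested (3 at an unadjusted p under 0.05, 0 with DESeq2), and 7 were bounded within 2-fold. All 9 were fitted higher, with a median of 0.43 and a range of 0.18 to 0.69, but with the share of green tissue markers as a covariate 6 were, with a median of 0.17. AT1G19020 read 1218, 886 and 1068 CPM at 2 h and 1288, 1509 and 1655 CPM at 3 h, with 0.49 (95% interval 0.14 to 0.84). ERF5, an ethylene response factor, read 116, 144 and 144 CPM and then 168, 154 and 136 CPM, with 0.18, and ERF6, its close relative, read 1047, 839 and 998 CPM and then 1144, 976 and 1473 CPM, with 0.32. Summed over the list, the markers took 0.52% to 0.622% of counts at 2 h and 0.685% to 0.829% at 3 h. The ranges were separate, and the exact permutation p was 0.1.

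Transcription factors of the early stress response gave 0 calls with edgeR. At an unadjusted p under 0.05 stood 1 WRKY, 3 zinc finger and 7 ERF or DREB factors, and 8.51% of all genes tested. The 10 WRKY factors had a median of 0.36 and 6 were bounded, with WRKY33, the activator of camalexin genes, at 321, 398 and 362 CPM and then 506, 430 and 526 CPM, a log2 fold change of 0.43. WRKY15 was the most tightly bounded, at 0.54 (95% interval 0.16 to 0.93). Of the 9 zinc finger factors 4 were bounded, and ZAT6 read 1260, 872 and 889 CPM and then 979, 831 and 1022 CPM, with -0.09 (95% interval -0.47 to 0.28). Of the 24 ERF and DREB factors 8 were bounded and 16 undecided, with a range of -1.43 to 1.48. Within that range lay ORA59, which joins jasmonate and ethylene signals, at 31.2, 21.9 and 35.2 CPM and then 16, 8.06 and 5.73 CPM, with -1.43 (adjusted p 0.102), while AT5G51190 had -0.03 (95% interval -0.39 to 0.33). DESeq2 called 2 of these 24, both lower, and none of the WRKY or zinc finger factors.

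Genes of immune and MAP kinase signalling gave 0 calls among 9 (1 at an unadjusted p under 0.05, 0 with DESeq2), and 5 were bounded. MKK9, a MAP kinase kinase upstream of ethylene and camalexin synthesis, read 216, 290 and 331 CPM at 1 h in dye, 822, 632 and 1014 CPM at 2 h and 836, 745 and 761 CPM at 3 h. Its last hour was bounded at -0.08 (95% interval -0.49 to 0.34). The 28 genes of indole glucosinolate and camalexin synthesis had a median of 0.20, with PAD3 the one that rose, 15 bounded and 12 undecided. TSB1, of tryptophan synthase, which feeds this pathway, was bounded at 0.23 (95% interval -0.12 to 0.58).

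Aquaporins went the other way. Of 18 tested, 2 fell, RD28 and TIP2, 3 were bounded within 2-fold and 13 were undecided, with a median of -0.66 and a range of -1.32 to 0.52. In 17 of 18 the fitted fold change was below 0, and in 13 the 3 h libraries all lay below the 2 h libraries. Over all genes tested, 46.1% were fitted above 0 and 6.34% were separate and lower. Leaving out 1 library at a time gave 0 to 4 calls, and DESeq2 gave 7. GAMMA-TIP, an abundant channel of the vacuole membrane, read 2298, 2690 and 1582 CPM at 2 h and 768, 1353 and 1146 CPM at 3 h, with -1.01 (adjusted p 0.0818). TIP2;2 read 452, 523 and 370 CPM and then 174, 259 and 226 CPM, with -1.03 (SE 0.23, adjusted p 0.0543). DELTA-TIP read 210, 350 and 275 CPM and then 127, 135 and 152 CPM, with -1.02 (adjusted p 0.0543). These vacuolar channels were each separate between the groups and fell short of the test.

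Those of the plasma membrane other than RD28 ranged from -0.93 for PIP2;4 to 0.52 for PIP2;8. PIP1C read 1977, 2449 and 1823 CPM and then 1382, 1212 and 1398 CPM, with -0.65, and PIP2A read 841, 1145 and 820 CPM and then 520, 564 and 688 CPM, with -0.67. PIP1;4 was bounded at -0.39 (95% interval -0.80 to 0.02), and PIP2;8 was the only one of the 18 fitted higher. In bulk roots, fewer cells of a type and less RNA per cell cannot be told apart.

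Markers of cell types were read beside the aquaporins. The 13 green tissue markers tested had a median of -0.82 (range -1.15 to -0.34), 1 was bounded and 8 had separate groups, all lower at 3 h. Of all genes tested, 6.34% were separate and lower. PSBO1, of the oxygen-evolving complex, read 122, 75.5 and 58.2 CPM at 2 h and 34.1, 37.3 and 42.3 CPM at 3 h, with -1.15 (adjusted p 0.0543). None of the 18 markers on the list was at 0 in all 6 libraries, and none was called with edgeR (7 at an unadjusted p under 0.05, 1 with DESeq2). With the summed share of these markers as a covariate, the aquaporins had a median of -0.95 and 1 call, while RD28 had an adjusted p of 0.0598 and TIP2 of 0.0602. Their median was -0.76 without the libraries that stood apart, where TIP2 had an adjusted p of 0.0806.

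Root hair markers, genes of the tubular outgrowths of the epidermis, summed to 0.00339% to 0.00638% of counts at 2 h and 0.00159% to 0.00358% at 3 h (exact permutation p 0.2). The 6 tested had a median of -1.29 and a range of -1.68 to -0.31, all were undecided, and EXPA18, an expansin of growing hairs, read 13.1, 10.2 and 7.28 CPM and then 1.7, 5.04 and 4.3 CPM. Endodermis markers took 0.0628% to 0.0843% and then 0.0526% to 0.066% of counts (exact permutation p 0.3), with a median over 6 of -0.25 and 4 bounded, CASP2 at -0.33 (95% interval -0.70 to 0.03). Their part in the result for the aquaporins was not tested. Of the other cell types, xylem had 2 markers tested (1 bounded, XCP2 at 0.28), phloem 3 (all bounded, SEOR1 at -0.29), root cap 2 (1 bounded, SMB at -0.23) and cell division 1, CDKB2;1, bounded at 0.18. Their exact permutation p-values lay between 0.2 and 0.6.

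Energy starvation markers, genes induced when sugar runs out, had a median of -0.27 over 9 tested, with SEN1 the 1 that fell, 6 bounded and 2 undecided. ASN1, an asparagine synthetase, read 26.4, 38.4 and 35.4 CPM at 1 h in dye, 256, 194 and 209 CPM at 2 h and 210, 122 and 156 CPM at 3 h, and its last hour gave -0.42 with overlapping groups. Summed, the markers took 0.273% to 0.295% of counts at 2 h and 0.236% to 0.301% at 3 h, which overlap (exact permutation p 0.4). Autophagy genes, of the route that recycles cell contents, gave 0 calls among 12 (0 at an unadjusted p under 0.05 and 0 with DESeq2), with a median of -0.35. Only 3 of them were bounded, and most were low: ATG6, of the complex that starts the process, read 5.04, 8.76 and 10.5 CPM at 2 h.

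Several groups were mostly bounded within 2-fold. Of 11 circadian clock genes 10 were bounded, with PCL1, also known as LUX, at 0.01 (95% interval -0.34 to 0.37). Of 12 nucleolar genes of ribosome assembly 10 were bounded, with FIB1, a fibrillarin, at -0.19 (95% interval -0.50 to 0.12). Of 18 auxin genes 15 were bounded, with IAA16, a repressor of auxin response, at 0.16 (95% interval -0.16 to 0.48). Each of these shares was above the 58.7% over all genes tested, but the share follows the counts and was not compared at matched depth. Of 20 genes of abscisic acid and dehydration 15 were bounded, with the receptor PYL5 at -0.10 (95% interval -0.45 to 0.25), and NCED3, the enzyme that limits synthesis of the hormone, was undecided at 0, 3.9 and 6.47 CPM and then 11.1, 12.6 and 16.5 CPM, a log2 fold change of 1.68 (adjusted p 0.255).

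In groups of protein turnover and of folding outside the cytosol, the bounded share was close to that of all genes. Of 41 subunits of the 26S proteasome, the protease of ubiquitin-tagged proteins, 26 were bounded and 15 undecided, with a median of -0.04 and PBA1 at 0.00 (95% interval -0.33 to 0.34). Of 15 genes of folding in the endoplasmic reticulum 9 were bounded, with a median of 0.16. BIP2, the HSP70 of that compartment, stood at 458, 402 and 408 CPM and then 481, 533 and 402 CPM, with 0.16 (95% interval -0.18 to 0.50). Its level in water had been 1289 to 1421 CPM, so the last hour found it low and bounded. NBR1, a receptor that brings tagged proteins to autophagy, had 0.04 (95% interval -0.32 to 0.40).

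Among genes of scavenging and metabolism, 16 of 25 enzymes that remove peroxide and superoxide were bounded, with a median of -0.07 and MDAR1, a monodehydroascorbate reductase, at -0.22 (95% interval -0.54 to 0.09). Of 19 genes of nitrogen, phosphate, sulfur and iron nutrition 11 were bounded, with a median of 0.04. LSU1, a sulfur starvation gene, read 464, 340 and 339 CPM and then 295, 328 and 529 CPM, with 0.01 (95% interval -0.53 to 0.55), after 55.1 to 90.8 CPM at 1 h in dye. NIA1, a nitrate reductase, was undecided at 341, 462 and 572 CPM and then 749, 674 and 691 CPM, with 0.62 (adjusted p 0.482), while NIA2, the other, was bounded at 0.06 (95% interval -0.30 to 0.42).

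Of 20 jasmonate genes 11 were bounded, with a median of 0.18 and the repressor JAZ12 at 0.20 (95% interval -0.21 to 0.61). Of 13 core hypoxia genes 6 were bounded, with a median of 0.39. HB1, a haemoglobin that scavenges nitric oxide, read 229, 145 and 179 CPM and then 226, 185 and 251 CPM, and was bounded at 0.27 (95% interval -0.12 to 0.65). ERF71, a hypoxia regulator, read 14.1, 19.5 and 36.8 CPM and then 57.3, 44.3 and 55.2 CPM, with 1.09 (adjusted p 0.345), and was undecided. Of 9 genes of the mitochondrial retrograde response, which answers failing respiration, 3 were bounded, with a median of 0.55 and NDB2, an external NAD(P)H dehydrogenase, at 0.55 (95% interval 0.17 to 0.93). Of 5 respiratory burst oxidases, enzymes that make superoxide at the plasma membrane, 2 were bounded, with a median of -0.37 and RBOHD at 0.45 (95% interval -0.05 to 0.94).

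**Figure D4:**
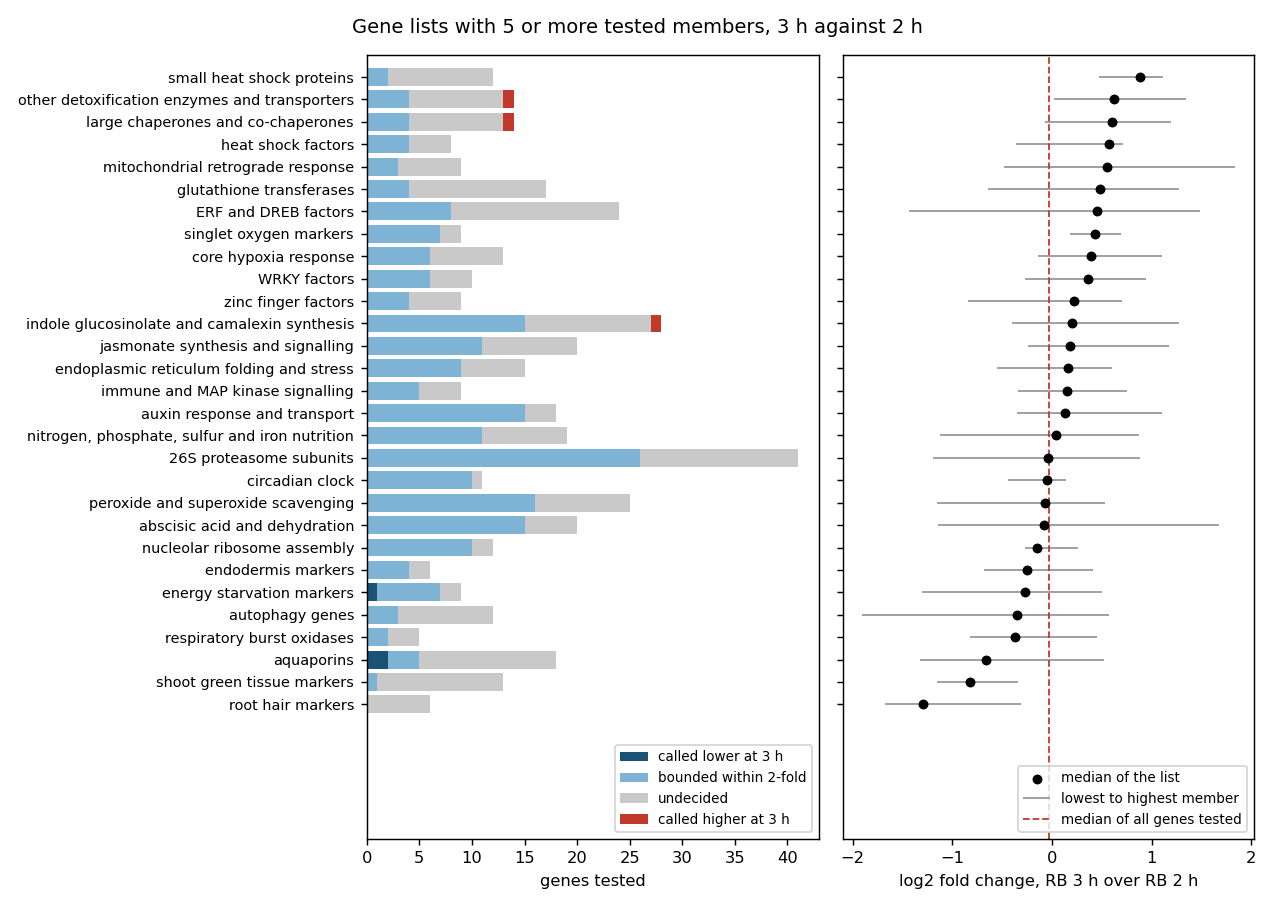
For each gene list with at least 5 genes tested, the number of genes that were higher, lower, bounded within 2-fold or undecided at RB 3 h against RB 2 h (stacked bars), and the median and range of the log2 fold change (points and lines). Small heat shock proteins have the highest median, 0.88, root hair markers the lowest, -1.29, and calls are few in every list.

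In all, 425 tested genes stood in the 33 lists, 9 of them in more than 1, and 6 were called, 215 were bounded and 204 were undecided. The 28 lists with 0 calls in edgeR held 68 list entries with an unadjusted p under 0.05. Over all genes tested that share was 8.51%, which also stands beside the counts by list above. DESeq2 called 14 of the entries, of which 8 were small heat shock proteins, against 99 calls over all genes. In 22 of the 28 DESeq2 called none.

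Whether genes moved by the first hour of dye went on moving could be asked with libraries that the last hour does not use, since RB 1 h and water 1 h have none in common with it. After 1 h of dye 533 genes (5.39%) differed from water, 304 (3.07%) higher and 229 (2.32%) lower. Of the 304 that were higher, 1 was higher and 4 were lower in the last hour, 187 (61.5%) were bounded within 2-fold, and 72% had a fitted fold change above 0, with a median of 0.25. Of the 229 that were lower, 0 were higher and 3 were lower, 150 (65.5%) were bounded, and 36.2% had a fitted fold change above 0, with a median of -0.14. Over all genes tested, 0.0607% were called higher and 0.162% lower in the last hour. Of the same genes 58.7% were bounded, 46.1% were above 0 and the median was -0.03. The called shares were not compared at matched depth. The bounded shares of both sets were thus close to that of all genes, although the sets were deeper, with median mean counts of 167 and 96. Their medians lay on the side of their first change.

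The difference between the steps was then tested in the same fit, as the change from 2 h to 3 h less the change from 1 h to 2 h. It passed in 112 genes (1.13%), with 90 (0.91%) lower and 22 (0.222%) higher in the last hour than in the hour before. RB 2 h enters both steps with opposite signs, so chance in those libraries also moves this difference. The 90 genes had a median log2 fold change of 2.26 from 1 h to 2 h and of 0.18 from 2 h to 3 h, and in the last hour 6 were called, 44 were bounded within 2-fold and 40 were undecided. The 22 genes had -1.65 and then 0.58, and in the last hour 0 were called, 11 were bounded and 11 were undecided.

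UGT75B1 had one of the largest differences, with 5.87 and then 0.79, a difference of -5.08 (adjusted p 3.42e-05), although its level at 1 h was a few counts and the first value depends on how such counts are modelled. SEN1 had 2.22 and then -1.30, a difference of -3.52 (SE 0.39, adjusted p 3.42e-05), so its fitted direction turned. The limits given above for its last hour apply here too. ASN1 had 2.74 and then -0.42, a difference of -3.16 (adjusted p 0.000103), and Hsp70b, which was at 8.39 to 13 CPM at 1 h, had 3.81 and then 0.85, a difference of -2.96 (adjusted p 0.000185). HSP18.2 had 3.29 and then 0.58, a difference of -2.70 (adjusted p 0.000185). Both chaperones thus had the larger step between 1 h and 2 h, and 10 of the 12 small ones passed this test.

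MGL (AT1G64660), a methionine γ-lyase, read 234, 358 and 371 CPM at 1 h, 1020, 1056 and 944 CPM at 2 h and 620, 586 and 683 CPM at 3 h. Its steps were 1.65 and then -0.68 (SE 0.18, adjusted p 0.11), a difference of -2.33 (adjusted p 0.000138). MO1 (AT4G15760), a monooxygenase, read 42.8, 41.4 and 23.4 CPM, then 325, 255 and 262 CPM, then 342, 295 and 373 CPM. Its steps were 2.97 and then 0.26, a difference of -2.70 (adjusted p 0.000138). MGL thus stood lower at 3 h than at 2 h without passing the test of that hour, while MO1 overlapped between the 2 times. MKK9 had 1.56 and then -0.08, a difference of -1.64 (adjusted p 0.0109), and NDB2 had 2.03 and then 0.55, a difference of -1.48 (adjusted p 0.0184).

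**Figure D5:**
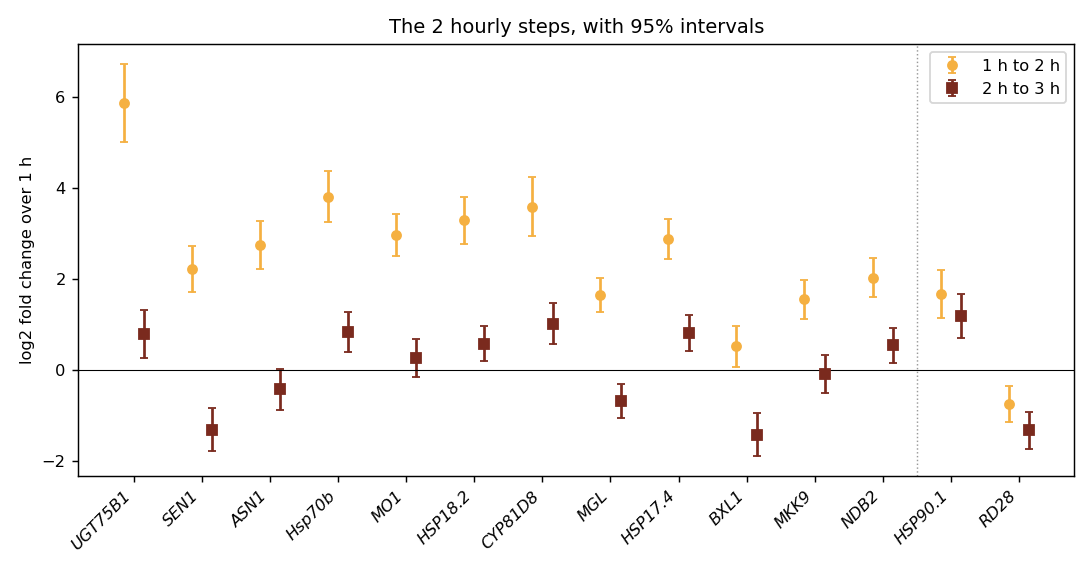
Log2 fold change from 1 h to 2 h and from 2 h to 3 h in Rose Bengal, with 95% intervals, for 12 genes whose steps differed, and to the right of the dotted line for HSP90.1 and RD28. SEN1 turns from 2.22 to -1.30, UGT75B1, MO1 and Hsp70b drop to values below 1, and HSP90.1 and RD28 keep their direction.

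In the other direction, CLV1, a receptor kinase that limits stem cell number, averaged 97.1 CPM at 1 h, 31.3 at 2 h and 45.4 at 3 h, and its steps differed by 2.18 (adjusted p 0.002). CNX1, calnexin of the endoplasmic reticulum, averaged 856, 360 and 445 CPM at these times, and its last hour was bounded at 0.31. Both had been lower at 2 h than at 1 h, and neither was called in the last hour. They were chosen after their values were seen.

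In the authors' deposited table for the same pair of groups, 38 genes were marked as passing, 17 higher and 21 lower at 3 h. By its adjusted p alone, the authors' deposited table has 66 genes under 0.05, 33 each way. Of the 38 marked in the authors' deposited table, 37 were tested here and 19 were among the 22, and all 22 have an adjusted p under 0.05 in that table.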

How the data were processed

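Root RNA of 15 libraries in 5 groups of 3 had been sequenced by MARS-seq. The deposited table holds raw counts per gene, and the authors' log2 fold change, adjusted p-value and pass mark (yes or no) for pairs of groups. Per the submitters' processing notes, bcl2fastq, cutadapt, STAR 2.4.2a, HTSeq and DESeq2 were used. The sources used here do not name a build or annotation, nor say whether molecular identifiers were collapsed, and no sequence is printed for that reason. Another 30 per-library columns of the table were not used.

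From the counts, 9891 of 14391 genes passed edgeR's filterByExpr over the 5 groups (4500 set aside). All 15 libraries were fitted together with TMM scaling and edgeR 4.0.16's robust quasi-likelihood test (R 4.3.3, limma 3.58.1, 10 residual degrees of freedom, common dispersion 0.0425), with Benjamini-Hochberg adjustment over all genes and a threshold of 0.05. CPM values use TMM-scaled totals. Standard errors were taken as the absolute fold change (log2) divided by the root of the F statistic, and 95% intervals use the t distribution. The smallest callable change is the size of estimate that would reach the largest unadjusted p among the calls. The fit was also run on counts simulated from its own means and dispersions, except at RB 3 h. There the RB 2 h means were used, with changes planted in some of the deeper genes. That run cannot show how the calls depend on single libraries. DESeq2 1.42.0 was an alternative, and the others were other scaling, no filter, fewer libraries, a replicate block, other thresholds and margins, and each replicate left out. Same-lettered libraries did not deviate together, so letters were not used as pairs.

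Names come from RefSeq's TAIR10.1 (14356 loci found, 35 not). Genes named are all called genes, the tightest bounded member of most lists, and the 6 smallest p-values with a symbol for the step difference. Further list members are shown for their roles, and were chosen after their values were seen. The members, lists and thresholds were chosen with earlier results of these data known.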

Additional observations from a re-analysis of the deposited data

Results flagged for a closer look

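The test of the difference between the 2 hourly steps, the change from 2 h to 3 h less the change from 1 h to 2 h in dye, passed in 42 of the called genes, list members and other genes named, 38 of them lower in the last hour, and each value below is that difference on the log2 scale. RB 2 h enters both steps with opposite signs. Among small heat shock proteins the differences were -6.98 for ATHSP22.0, which had 0 counts at 1 h so that its value depends on a prior count, -2.80 for HSP17.6II, -2.70 for HSP18.2, -2.60 for AT2G29500, -2.51 for AT1G53540, -2.36 for HSP23.6-MITO, -2.31 for HSP17.6A, -2.06 for HSP17.4, -1.95 for AT1G07400 and -1.88 for AT1G59860. Hsp70b, among the larger chaperones, had -2.96.

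Among detoxifying and related genes the difference was -5.59 for UGT74E2 and -5.08 for UGT75B1, both at a few counts at 1 h, -3.85 for CYP81D11, -2.57 for CYP81D8, -2.18 for OPR1, -1.66 for the transcription factor NAC032 and -1.64 for UGT73B3. The glutathione transferases GSTU1, GSTF3, GSTU12 and GSTU7 had -2.75, -2.20, -2.17 and -1.69. MO1 had -2.70, MGL -2.33, the kinase MKK9 -1.64 and the dehydrogenase NDB2 -1.48. Of genes tied to starvation and the cell wall, SEN1 had -3.52, ASN1 -3.16, BXL1 -1.94 and BGAL1 -1.89, and AT3G62950 and AT5G02160 had -2.94 and -2.82. In nutrition, LSU1 had -2.45, APR3 -2.15, NIA1 -2.07, LSU2 -1.90 and NIA2 -1.34, and the green tissue marker LHCA4 had -1.87. In the other direction, the difference was 1.33 for AUX1, 1.56 for CNX1, 2.18 for CLV1 and 2.39 for CYP91A2.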

How the results depend on the processing

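The 22 genes that differed between 3 h and 2 h numbered 42 (16 higher, 26 lower) with no filter on low counts, 99 (54 and 45) with DESeq2, 3 with glmTreat against a fold of 1.2, 65 (32 and 33) at an adjusted p of 0.1 and 3 at 0.01. Leaving out 1 replicate at a time gave 0 to 46. The alternative with replicate letters as a block gave 9 (2 and 7), 8 of them among the 22; the letters did not pair the samples, with correlations of same-letter deviations of -0.24, -0.04 and -0.149, and no library correlated best with its own letter. With the shoot marker share as a covariate, chosen after seeing the data, it was 10, of which 4 were among the 22. Genes bounded within 2-fold, 5808 here, were 4504 to 5304 with a replicate left out, 5476 under the replicate block and 3890 with the shoot covariate. At a margin of 0.58 there were 1681, and at 0.5 there were 862. The 112 genes whose steps differed were 77 to 119 with a replicate left out, 93 under the block, 64 with the shoot covariate and 169 with DESeq2. The 968 of the hour before were 612 to 942, and 830 under the block. The 533 genes of the first hour (304 and 229) were 1104 when the libraries that stood apart at 1 h (b) and at 2 h (a) in dye were left out together, chosen after seeing the data, and 417 under the block. The cause of these moves was not tested. The call of BXL1 and of AT5G64120 was lost in 3 of 14 alternatives and that of RD28 in 4, and the highest adjusted p over them was 0.0883, 0.115 and 0.0906; the other 19 lost theirs in 6 to 10. Of the 59 genes followed across alternatives, GSTF8, MGL and Hsp70b were not called here and passed with DESeq2 (adjusted p 0.0130, 0.0196 and 0.0239). None of the 22 changed sign, but 11 uncalled genes did. With 1 replicate left out, the value ran for HSC70-1 from -0.04 to 0.19, for OPR2 from -0.15 to 0.19, for ZAT6 from -0.18 to 0.10, for AT5G51190 from -0.13 to 0.04, for MKK9 from -0.23 to 0.11, for JAZ12 from -0.02 to 0.31, for PBA1 from -0.05 to 0.09, for NIR1 from -0.10 to 0.10, for PCL1 from -0.07 to 0.12 and for CDKB2;1 from -0.10 to 0.65. Without both libraries that stood apart, ZAT6 had 0.10, AT5G51190 0.00, PCL1 -0.07 and CDKB2;1 -0.10. With the shoot covariate AT5G51190 had 0.17 and ASN1 0.03, and with DESeq2 AT5G51190 had 0.00. The medians of 10 lists changed sign too, none above 0.2 in size here other than that of the green tissue markers. The median log2 fold change of all genes lay between -0.038 and -0.009. Genes with mean counts under 30 are limited most by depth.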
